A study of Mus musculus with 8 samples.

Results

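H3.3-HA peaks whose midpoint lay within 3 kb past the end of a protein-coding gene, and not within 3 kb upstream of any protein-coding transcription start site (TSS), were examined in 4 conditions. There were 4406 such peaks among 75040 in all. They comprised 1096 of the 22730 wild type (WT) day 0 peaks, 468 of the 17706 Hira-null day 0 peaks, 1984 of the 27272 WT day 15 peaks and 858 of the 7332 Hira-null day 15 peaks. The gene end was the outermost annotated 3′ end of each of the 22367 protein-coding genes (mm9). WT cells were the mouse embryonic stem cell (mESC) line W9.5 and Hira-null cells were the mESC line Clone 104, which is a single clone. Both lines carry H3.3 with an HA tag, so the tag is shared by all groups. Day 0 cells were undifferentiated, and day 15 cells had been differentiated towards cardiomyocytes. Each condition had 1 ChIP library and 1 input library, so there were no replicates and no test was made. Intervals in parentheses are exact 95% intervals of a share, or order-statistic intervals of a median, and cover counting error only. The depth of each library is unknown, and the number of peaks in a list also carries depth.

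H3.3 is a histone H3 variant whose deposition does not depend on DNA replication. The chaperone HIRA deposits it over many transcribed genes. At the end of a gene, RNA polymerase II passes the poly(A) signal, the transcript is cut, and the polymerase goes on for some distance before it leaves the template. Nucleosomes are exchanged there as in the gene body, and H3.3 is known to mark the region past the end of active genes as well as promoters and enhancers.

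Sequence at the middle of 10 of these peaks is shown to let a reader see what kind of DNA they lie in. Each is 100 bases around the peak midpoint, read 5′ to 3′ along the gene's strand from the mm9 (NCBIM37) genome, with CpG dinucleotides in capitals. Windows that touched an annotated exon or began before the gene end were passed over. The first pair belongs to genes with a gene-end peak in all 4 lists and was taken from WT day 15. Srsf3 at chr17:29182255-29182354 and Rpl6 at chr5:121659821-121659920 (both plus strand) hold no CpG.
Srsf3: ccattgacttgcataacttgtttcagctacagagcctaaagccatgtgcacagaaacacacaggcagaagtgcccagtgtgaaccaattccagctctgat
Rpl6: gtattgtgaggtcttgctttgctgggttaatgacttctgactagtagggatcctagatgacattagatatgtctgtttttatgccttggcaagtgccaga
The next pair lies at the highest-scoring WT day 0 gene-end peaks without an overlapping Hira-null day 0 peak, past Gm13145 (chr4:146765763-146765862, plus strand) and Zfp640 (chr13:66770941-66771040, minus strand).
Gm13145: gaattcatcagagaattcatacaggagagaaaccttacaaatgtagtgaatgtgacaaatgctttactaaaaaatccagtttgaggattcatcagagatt
Zfp640: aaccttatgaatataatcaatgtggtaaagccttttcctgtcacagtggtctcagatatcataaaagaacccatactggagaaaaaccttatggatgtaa
Past Fnip1 (chr11:54332892-54332991, plus strand) and Ppp3r1 (chr11:17101245-17101344, plus strand), WT day 15 peaks had no Hira-null day 15 partner.
Fnip1: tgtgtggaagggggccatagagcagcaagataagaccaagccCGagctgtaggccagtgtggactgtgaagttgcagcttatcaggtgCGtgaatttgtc
Ppp3r1: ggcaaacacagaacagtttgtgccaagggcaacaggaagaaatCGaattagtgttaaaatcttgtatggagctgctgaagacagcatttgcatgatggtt
In Hira-null cells the same was done for peaks without a WT partner. At day 0 they were those past 5730403B10Rik (chr16:4749303-4749402, minus strand) and Zfp160 (chr17:21166496-21166595, plus strand). The strongest such peak, past Dtwd2 (score 833), was left out before the exon rule was applied and is not shown.
5730403B10Rik: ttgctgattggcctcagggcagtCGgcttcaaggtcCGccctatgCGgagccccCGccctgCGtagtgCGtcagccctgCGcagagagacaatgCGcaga
Zfp160: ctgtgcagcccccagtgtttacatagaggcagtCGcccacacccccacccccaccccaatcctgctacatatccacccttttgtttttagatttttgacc
At day 15 they were those past Stambpl1 (chr19:34316699-34316798, plus strand) and Col3a1 (chr1:45408009-45408108, plus strand).
Stambpl1: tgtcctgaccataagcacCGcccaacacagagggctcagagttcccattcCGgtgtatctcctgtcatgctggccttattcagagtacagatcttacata
Col3a1: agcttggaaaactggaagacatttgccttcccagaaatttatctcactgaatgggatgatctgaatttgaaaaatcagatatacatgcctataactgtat
The 10 windows held 0 to 8 CpG, and only the window past 5730403B10Rik, which lies inside the oppositely oriented gene Hmox2, held more than 2.

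Gene-end peaks were a larger share of the list at day 15 than at day 0 in both genotypes. They made up 4.82% (4.55 to 5.11) of WT day 0 peaks and 7.27% (6.97 to 7.59) of WT day 15 peaks. In Hira-null cells they made up 2.64% (2.41 to 2.89) at day 0 and 11.7% at day 15. Points placed every 200 bp along the genome fell in the same windows in 2.28% of cases. The WT shares were therefore 2.12 and 3.19 times the genome's, and the Hira-null shares 1.16 and 5.14 times. In number, Hira-null day 15 cells still had fewer gene-end peaks than WT day 15 cells, from a list that was shorter as a whole. With the 4 lists held to their 7332 highest-scoring peaks, gene-end peaks were 5.89% in WT day 0, 2.52% in Hira-null day 0, 9.53% in WT day 15 and 11.7% for Hira-null day 15. The rise from day 0 to day 15 was not particular to gene ends. In the full lists, peaks within 3 kb upstream of a TSS went from 10.3% to 13.9% in WT cells. In Hira-null cells they went from 2.28% to 5.76%. Peaks in the last 3 kb of genes went from 3.26% to 4.07% in WT cells. Their share also rose in Hira-null cells, to 6.44% at day 15.

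Coverage by peaks of any class was highest close to the gene end in every condition but Hira-null day 0. In WT day 15 cells, 6.08% of the first 500 bp past the end was covered, averaged over all genes, against 2.68% in the bin that starts 5 kb inside the gene and 2.28% in the last bin before 10 kb past the end. WT day 0 coverage reached 3.82% between 500 and 1000 bp past the end, which was 1.95 times the level near 10 kb. Hira-null day 15 coverage reached 1.99% in that same bin, which was 3.55 times its level near 10 kb. Hira-null day 0 coverage had no maximum at the gene end. It was 0.892% inside the gene, 1.60% between 1500 and 2000 bp past the end and 1.74% between 7000 and 7500 bp past it.

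**Figure D1:**
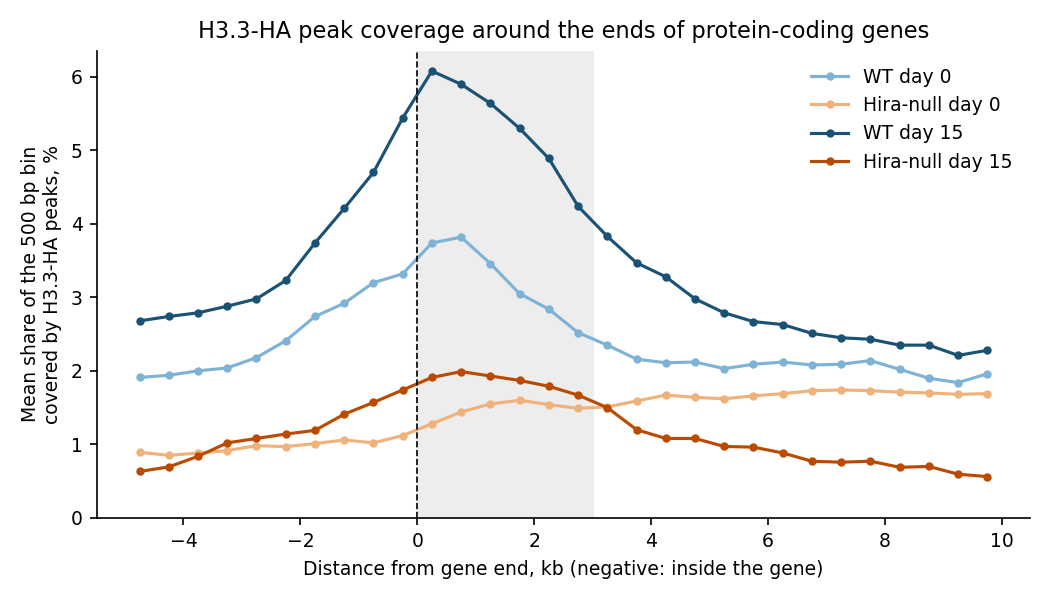
Mean share of each 500 bp bin covered by H3.3-HA peaks, in percent, by distance from the gene end in kb, over 22367 protein-coding genes and 4 lists, with the 3 kb window shaded. WT day 15 peaks at 6.08%, WT day 0 at 3.82% and Hira-null day 15 at 1.99% within 1 kb of the end, and Hira-null day 0 stays between 1.49% and 1.74% from 1 kb onwards.

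Within the 3 kb window, the median WT peak lay nearer to the gene end than the median Hira-null peak of the same day. The median distance was 1279 bp (1173 to 1339) in WT day 0 and 1317 bp (1253 to 1381) in WT day 15. It was 1505 bp (1418 to 1605) in Hira-null day 0 and 1431 bp (1320 to 1525) in Hira-null day 15, and the genome points in the same windows had a median of 1477 bp. Both WT intervals lay below that value and both Hira-null intervals included it. The intervals of the genotypes lay apart at day 0 and overlapped at day 15. The Hira-null day 0 median was 1374 bp with lists of equal length, from 185 peaks. The first 1 kb held 39.3% of WT day 0, 39.4% of WT day 15, 34.3% of Hira-null day 15 and 29.9% of Hira-null day 0 gene-end peaks, against 34.0% of genome points. Where gene-end peaks of both genotypes overlapped past the same gene, their positions did not move in 1 direction. At day 15 the Hira-null peak was farther from the end in 203 of 410 such pairs and nearer in 204, with a median shift of 0 bp. The peaks just inside the 3 kb limit, at 2500 to 3000 bp, numbered 145, 75, 234 and 127 in WT day 0, Hira-null day 0, WT day 15 and Hira-null day 15, and those just outside, at 3000 to 3500 bp, 135, 84, 233 and 119.

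In every list but Hira-null day 0, gene-end peaks were wider and ranked higher by score than the other peaks. In WT day 0 their median width was 1241 bp (1196 to 1292), against 1038 bp for all other peaks. In WT day 15 the values were 1033 bp (1010 to 1055) and 947 bp, and in Hira-null day 15 they were 875 bp (839 to 914) and 763 bp. In Hira-null day 0 cells the gene-end peaks, at 1496 bp (1402 to 1551), did not stand apart from the others at 1515 bp. The peak score is a scaled negative log10 of the peak caller's p-value and grows with depth, so it was used as a percentile within its own list, where 100 is the strongest. Median percentiles were 57.7 in WT day 0, 58.4 in WT day 15, 53.7 in Hira-null day 15 and 49.8 in Hira-null day 0. The top 10% of each list by score took in 18.3%, 16.3%, 12.8% and 11.8% of the gene-end peaks, in that order. Of promoter peaks, which lie within 3 kb upstream of a TSS, it took in 8.59%, 10.3%, 7.58% and 6.45%. Of peaks in the last 3 kb of genes it took in 14.8%, 17.1%, 14.0% and 11.3%. The median width of peaks in the last 3 kb was 1206 bp in WT day 0, 1009 bp in WT day 15 and 906 bp in Hira-null day 15. Greater width and higher rank were thus not particular to peaks past the gene end. In 30.2% of WT day 0, 29.9% of Hira-null day 0, 28.3% of WT day 15 and 21.8% of Hira-null day 15 cases the peak also covered the gene end itself.

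Comparing the genotypes asks which of these peaks were found only where HIRA is present. At day 15, 77.8% (75.9 to 79.6) of WT gene-end peaks had no Hira-null peak overlapping by at least 1 bp, against 91.9% of all WT day 15 peaks. Gene-end peaks were thus shared more often than the rest, at 22.2% (20.4 to 24.1) against 6.96% of other peaks and 4.87% of promoter peaks. Peaks in the last 3 kb of genes were close to them at 20.6%. In the other direction, 45.1% (41.7 to 48.5) of Hira-null day 15 gene-end peaks had no WT peak, against 69.2% of all Hira-null day 15 peaks. With lists of equal length, 37.5% (33.9 to 41.2) of WT day 15 gene-end peaks were shared, against 12.2% of other WT peaks. Leaving out chromosomes 8 and 11, where WT peaks were dense, gave 27.5% and 8.77%.

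At day 0 the order was different. A Hira-null day 0 peak was absent from 79.7% (77.2 to 82.1) of WT gene-end peaks, against 72.7% of all WT day 0 peaks, so that 20.3% (17.9 to 22.8) were shared against 27.7% of other peaks. Promoter peaks were shared in only 7.35%. Lists of equal length brought these values to 19.9% for gene-end peaks (86 of 432) and 22.9% for other peaks, which lies within the exact interval of the former. Of Hira-null day 0 gene-end peaks, 58.5% (53.9 to 63.1) had no WT peak, against 67.2% of the whole Hira-null day 0 list. By quartile of score in the Hira-null day 0 list, 76.4% (67.3 to 83.9) of gene-end peaks in the highest quartile overlapped a WT peak, and 26.9% (19.2 to 35.8) in the lowest. For other peaks the values were 61.9% and 15.2%.

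Gene-end peaks of higher score or greater width were shared more often in the WT day 15 list as well. Of the WT day 15 gene-end peaks, 9.98% of those in the lowest quartile of the list by score, 12.8% in the next, 19.5% in the third and 37.9% in the highest overlapped a Hira-null day 15 peak. Other WT day 15 peaks went from 3.90% to 12.5% over the same quartiles, so the excess at gene ends was present in each of them. By width the gene-end values went from 12.0% in the narrowest to 33.5% in the widest quartile, against 4.79% and 10.9% for other peaks. In WT day 0 the other peaks were shared less often with width, from 36.3% in the narrowest to 21.8% in the widest quartile. Gene-end peaks there went from 21.1% to 23.1% (19.3 to 27.4), so they were below the other peaks in the narrowest quartile and not in the widest, which held 432 of them.

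**Figure D2:**
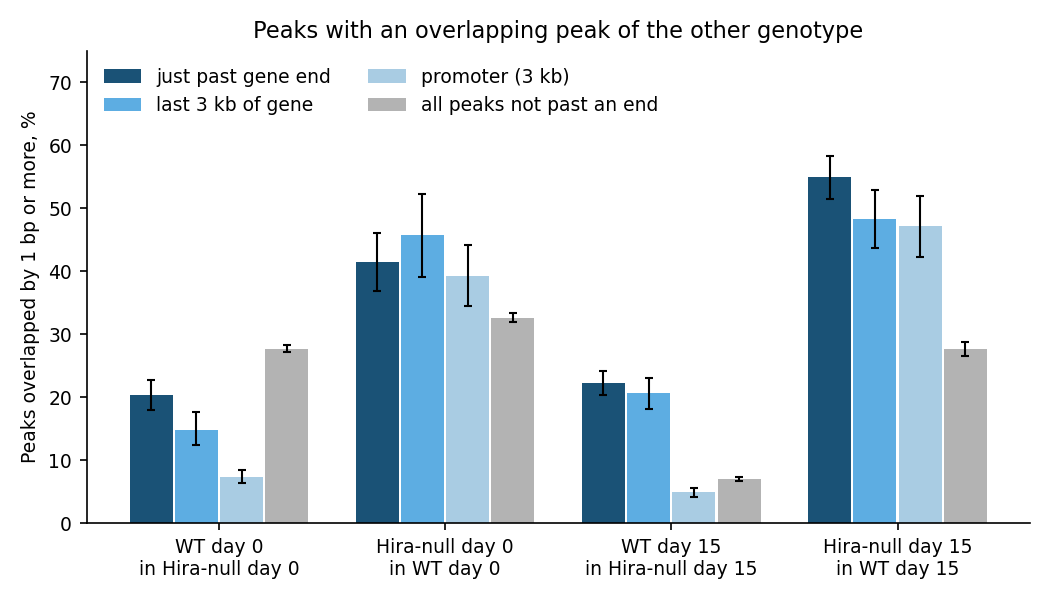
Share of peaks, in percent, with a peak of the other genotype overlapping by at least 1 bp, for peaks just past gene ends, in the last 3 kb of genes, in promoters, and for all peaks not past an end, with exact 95% intervals as error bars. WT day 15 gene-end peaks stand at 22.2% and WT day 15 promoter peaks at 4.87%, and at day 0 the WT gene-end peaks, at 20.3%, lie below the 27.7% of all other WT peaks.

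Between days, WT gene-end peaks overlapped each other's list more often than other WT peaks did. No WT day 15 peak overlapped 548 of the 1096 WT day 0 gene-end peaks, against 74.3% of all WT day 0 peaks, and no WT day 0 peak overlapped 70.7% (68.6 to 72.7) of WT day 15 gene-end peaks, against 78.0% of the whole list. Of WT day 0 peaks, 46.6% of those in the last 3 kb of genes and 44.7% of those in promoters overlapped a WT day 15 peak. In the other direction these shares were 31.7% and 28.4%, so the excess was not particular to gene ends. Hira-null gene-end peaks overlapped less between days than WT gene-end peaks did. Of Hira-null day 0 gene-end peaks 76.5% (72.4 to 80.3) had no Hira-null day 15 peak, against 90.8% of all. They thus overlapped more often than the whole list, as did Hira-null day 0 peaks in the last 3 kb of genes (32.2%) and in promoters (19.1%). Of Hira-null day 15 gene-end peaks 85.2% (82.6 to 87.5) had no Hira-null day 0 peak, against 76.5% of all, so in that direction they overlapped less often. Hira-null day 15 gene-end peaks overlapped the WT day 0 list in 31.6% (28.5 to 34.8) of cases and the Hira-null day 0 list in 14.8% (12.5 to 17.4). For the other Hira-null day 15 peaks these values were 19.1% and 24.6%, in the opposite order. Hira-null day 15 peaks in the last 3 kb of genes (37.9% and 16.5%) and in promoters (30.3% and 21.3%) had the order of gene-end peaks.

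A peak just past the end was found at 1035 genes in WT day 0, 454 in Hira-null day 0, 1787 in WT day 15 and 754 for Hira-null day 15. These are 4.63%, 2.03%, 7.99% and 3.37% of protein-coding genes. In all, 2865 genes had such a peak in at least 1 list, and 1081 of them had it in WT day 15 alone. WT day 15 and Hira-null day 15 cells shared 388 of these genes, which is 21.7% of the WT genes and 51.5% of the Hira-null genes. WT day 0 and Hira-null day 0 cells shared 178, which is 17.2% and 39.2%.

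Only 33 genes had a gene-end peak in all 4 lists. Among the leading 10 by mean score percentile were Srsf3, Rpl6, Sfpq, Matr3, Hspa8, Eno1, Nfe2, Hnrnpa2b1 and Gm4694. Srsf3, Sfpq, Matr3 and Hnrnpa2b1 encode RNA-binding proteins of the nucleus, and Nfe2 ends towards Hnrnpa1, which runs in from the other side. Srsf3, a serine and arginine rich splicing factor, had peaks of score 606 in WT day 0, 583 in Hira-null day 0, 375 in WT day 15 and 3100 for Hira-null day 15, at percentiles 99.7, 97.4, 97.2 and 99.9. A score of 3100 was the highest in the list, held by 14 Hira-null day 15 peaks, of which 2 were gene-end peaks. The Srsf3 peak was 4010 bp wide in WT day 0, 6435 bp in Hira-null day 0, 2095 bp in WT day 15 and 11033 bp in Hira-null day 15, so it was widest in the condition with the fewest peaks. Hnrnpa2b1, an RNA-binding protein of the hnRNP family, had widths of 1944, 2089, 11552 and 13661 bp in the same order, and both day 15 peaks had midpoints within 399 bp of the end.

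Rpl6, a protein of the large ribosomal subunit, was at percentiles 96.2, 99.5, 99.0 and 99.2 in WT day 0, Hira-null day 0, WT day 15 and Hira-null day 15. For Sfpq, a splicing and paraspeckle protein, Hira-null day 0 was the lowest at 79.4, against 99.8, 98.4 and 99.5 in WT day 0, WT day 15 and Hira-null day 15. Eno1, the glycolytic enolase, had midpoints at 1319, 1479, 1423 and 1396 bp past the end in WT day 0, Hira-null day 0, WT day 15 and Hira-null day 15. Hspa8, a constitutive Hsp70 chaperone, had midpoints at 1968, 1902, 2199 and 2521 bp.

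**Figure D3:**
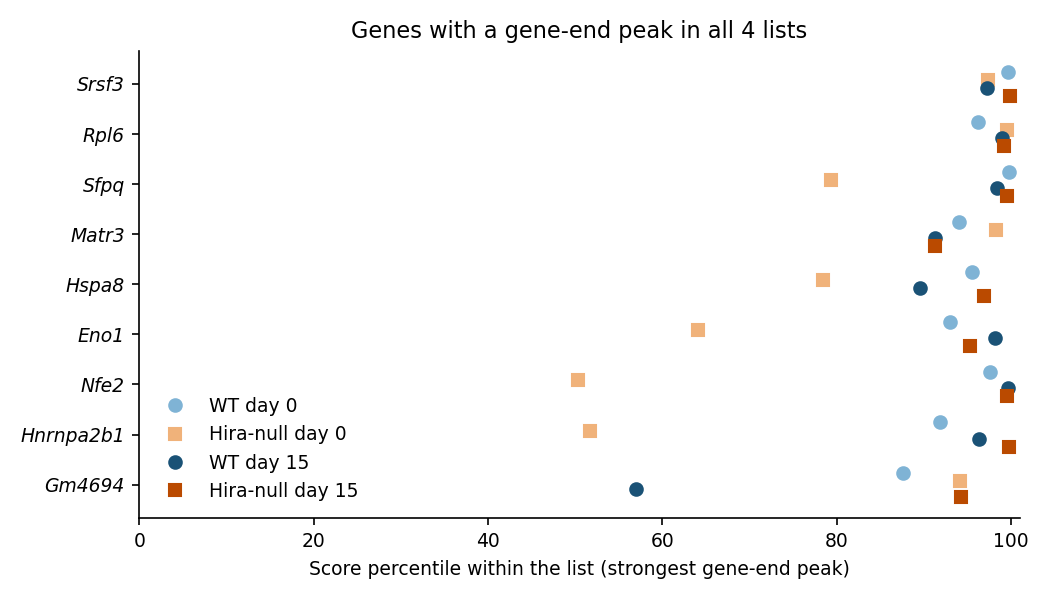
Score percentile within each list of the strongest gene-end peak of 9 leading genes with a gene-end peak in all 4 lists, where 100 is the strongest peak of the list and each symbol is 1 list. Srsf3 and Rpl6 lie above 96 in every list, and Hira-null day 0 is the lowest symbol for Sfpq, Hspa8, Eno1, Nfe2 and Hnrnpa2b1.

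The strongest WT day 0 gene-end peaks lay past Gm13151 and Gm13145 on chromosome 4 (scores 1615 and 1576), Gnb2l1, which encodes the ribosome-associated protein Rack1 (1279), Eif4a2, a translation initiation helicase (1254), and Zfp640 (1152). The strongest WT day 15 ones lay past Ppia, the cyclophilin A gene (2076), Ccng1, a cyclin G gene (1787), Rfc4, a subunit of the replication clamp loader (1740), Setd6 (1649) and Fam36a (1643). All 10 overlapped a Hira-null day 15 peak. The peaks past Rfc4 and Eif4a2 are the same region, since both genes end there from opposite sides. The midpoint past Fam36a lay inside Hnrnpu on the opposite strand. The midpoints past Setd6 and Gnb2l1 lay inside Cnot1 and Trim41, also on the opposite strand. In Hira-null day 15 cells, Rfc4 and Srsf3 (3100 each), Hnrnpa2b1 (2906), Trp53inp1, a p53-induced gene (2363), and Mto1 (2291) led, and these 5 loci had a peak in every other list. The strongest Hira-null day 0 gene-end peaks lay past Trp53inp1 (1575), Wsb1 (1527), Gm13139 (1460), Dtnbp1 (1413) and Ifitm7 (1365), each over 6 kb wide and each with a WT day 0 peak. The midpoint past Dtnbp1 lay inside Jarid2 on the opposite strand.

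Without a Hira-null partner of the same day, the strongest WT day 0 gene-end peaks were those past Gm13145 (1576), Zfp640 (1152), Zfp207 (698), Serbp1, an mRNA-binding protein gene (667), and Ppia (564). All 5 had a peak in Hira-null day 15 cells. The strongest WT day 15 ones lay past Ggcx (1323), Msh6, a mismatch repair gene (986), Fnip1 (838), Ppp3r1, the calcineurin regulatory subunit (832), and Rabep1 (826), and all 5 also had a WT day 0 peak. The midpoints past Ggcx, Msh6 and Rabep1 lay inside Mat2a, Fbxo11 and Nup88 on the opposite strand, and that past Ppp3r1 inside Wdr92 on the same strand. In WT day 0 the midpoint past Serbp1 lay inside Il12rb2 on the opposite strand. Fnip1, Ppp3r1 and Rabep1 lie on chromosome 11.

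Hira-null gene-end peaks without a WT partner of the same day differed between the days. At day 0 the strongest, past Dtwd2 (833), 5730403B10Rik (537), Zfp160 (490), Gm10598 (481) and Gm11127 (437), overlapped no peak of the other 3 lists. At day 15 they lay past Stambpl1 (1285), Col3a1, a fibrillar collagen (741), Zscan20 (651), Eef1e1 (616) and Rbm3, a cold-induced RNA-binding protein (581). The Stambpl1 and Col3a1 peaks overlapped no other list, and the midpoint of the former lay inside Acta2, the smooth muscle actin gene, on the opposite strand. Zscan20 and Eef1e1 had peaks in both day 0 lists and Rbm3 in WT day 0. The day 0 midpoints past 5730403B10Rik and Gm11127 lay inside Hmox2 and Gm6034, both on the opposite strand.

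Genes of the translation and RNA processing machinery had gene-end peaks more often than protein-coding genes as a whole. Of 83 ribosomal protein genes, 32 (38.6%) had one in WT day 0, 5 (6.02%) in Hira-null day 0, 41 (49.4%) in WT day 15 and 31 (37.3%) for Hira-null day 15. At day 15, 25 ribosomal protein genes had a gene-end peak in both genotypes, 16 in WT alone and 6 in Hira-null alone. With lists of equal length the counts were 19, 1, 25 and 31, so that the order of the genotypes at day 15 turned round. Rpl6, Rps24 and Rpl3 had it in all 4 lists, and Rps12 in all but Hira-null day 0. Rps24, of the small subunit, had scores of 150, 116 and 173 in WT day 0, Hira-null day 0 and WT day 15, and 1425 in Hira-null day 15, at percentiles 84.9, 47.5, 85.3 and 99.1. Of 67 splicing factor and hnRNP genes, 22, 5, 28 and 20 had a gene-end peak in the same order of lists (32.8%, 7.46%, 41.8% and 29.9%), and 10, 2, 15 and 20 with lists of equal length. Translation factors had 12, 3, 14 and 6 of 66. Among them Eef1a1, elongation factor 1 alpha, was at percentiles 99.4, 81.8 and 98.3 in WT day 0, Hira-null day 0 and WT day 15. No Hira-null day 15 peak was assigned to Eef1a1, but each peak was assigned only to its nearest gene end. Counting every gene whose window held the midpoint gave 14, 3, 16 and 8 translation factors.

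Actin and tubulin cytoskeleton genes had 8, 1, 11 and 11 of 21 genes, so that the day 15 lists were equal at 52.4%, and with lists of equal length 4, 0, 8 and 11. Actb, beta actin, had midpoints 954 bp past the end in WT day 0, 957 bp in WT day 15 and 947 bp in Hira-null day 15. Its percentiles were 88.4, 89.1 and 97.3. Glycolysis genes had 3, 3, 6 and 5 of 19 (15.8%, 15.8%, 31.6% and 26.3%), with Eno1 and Gapdh in all 4 lists. With lists of equal length they had 3, 1, 2 and 5, and the day 15 order turned round, as it did for all genes. Among heat shock protein and chaperonin genes the counts were 11, 5, 18 and 10 of 84.

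In the next groups more genes had gene-end peaks in the WT lists than in the Hira-null lists, as among all genes (at day 0 4.63% in WT and 2.03% in Hira-null cells, at day 15 7.99% and 3.37%). Replication-dependent histone genes, whose transcripts end in a stem-loop and not in a poly(A) tail, had 9 of 67 in WT day 0 (13.4%). They had 16 in WT day 15 (23.9%) and 0 in either Hira-null list. By the approximate limit of 3 divided by the number of genes, 0 of 67 allows a share of up to 4.48%. That limit takes in the Hira-null shares of all genes. Hist2h2aa2 was at percentiles 75.6 and 89.8 in WT day 0 and WT day 15, and Hist1h4f, an H4 gene, at 76.8 and 73.7. Histone genes left with lists of equal length numbered 4 and 6. These genes lie close together in clusters, so a peak past 1 of them can also lie near a neighbour. Oxidative phosphorylation genes had 8, 1, 17 and 2 of 94, with no gene in both genotypes at day 15. Atp5h, an ATP synthase subunit gene on chromosome 11, was at percentile 97.0 in WT day 15. Without chromosomes 8 and 11, where WT peaks were dense, the oxidative phosphorylation counts were 8, 1, 12 and 2 of 84. Proteasome genes had 2, 1, 10 and 3 of 40, and without those chromosomes 2, 1, 5 and 2 of 31. With lists of equal length, the oxidative phosphorylation counts were 2, 1, 5 and 2 and the proteasome counts 1, 1, 3 and 3.

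Lists tied to the state of the cells are read beside the shares of all genes, which were also higher at day 15. Pluripotency genes had gene-end peaks at 9 of 20 in WT day 0 (45.0%), 4 in Hira-null day 0, 2 in WT day 15 and 0 for Hira-null day 15. Dppa5a was at percentile 98.5 in WT day 0 and 19.9 for Hira-null day 0, and Zfp42 (Rex1) at 89.5 and 91.5. Sall4, a zinc finger factor of stem cells, had a gene-end peak in WT day 0 and WT day 15. Cardiac transcription factors had 0 of 28 in both day 0 lists, 5 in WT day 15 and 3 for Hira-null day 15. By the same approximate limit as for histone genes, 0 of 28 allows a share of up to 10.7%, above the day 0 shares of all genes. Tead1 had a gene-end peak in both genotypes at day 15 (percentiles 88.2 and 44.7), Meis1 (percentile 84.6) and Hand1 (48.4) in WT alone, and Tbx20 (38.6) in Hira-null alone. Meis1 and Hand1 lie on chromosome 11, and without chromosomes 8 and 11 the day 15 counts were 2 and 3 of 22. With a score of at least 100 there were 2 and 0 cardiac factors left. Of 24 sarcomere and contraction genes, 2 had a gene-end peak in WT day 15 (8.33%) and 1 for Hira-null day 15 (4.17%), near the 7.99% and 3.37% of all genes. These were Casq2, calsequestrin, in both (96.9 and 83.3) and Atp2a2, which encodes the SERCA calcium pump, in WT (96.5). Smooth muscle genes had 3 and 2 of 10 at day 15, with Cald1 in both, Mylk and Smtn in WT and Tagln in Hira-null cells.

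Collagen and matrix genes and imprinted genes were the groups in which the Hira-null day 15 list held more genes than the longer WT day 15 list, as deposited. Collagen and matrix genes had 0, 1, 7 and 10 of 64 in WT day 0, Hira-null day 0, WT day 15 and Hira-null day 15. The day 15 shares were 10.9% and 15.6%, against 7.99% and 3.37% of all genes. The list also counts Vim, which encodes vimentin, an intermediate filament protein and not a matrix protein. Vim had a score of 84.4 (percentile 47.7) in WT day 15 and 937 (percentile 97.8) for Hira-null day 15, and Fn1, fibronectin, 128 (73.6) and 409 (92.5). Lamb1 went the other way, with 259 (93.9) and 55.5 (11.4). With lists of equal length, 3 WT day 15 and 10 Hira-null day 15 genes of this group had a gene-end peak, and with a score of at least 100, 3 and 8. Imprinted genes had 0, 0, 4 and 6 of 24, and Peg3 was at percentile 75.6 in WT day 15 and 97.0 for Hira-null day 15, where its peak was 10142 bp wide.

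Of genes silent in most tissues, olfactory and vomeronasal receptor genes had gene-end peaks at 14, 27, 5 and 5 of 1434, which is 0.976%, 1.88%, 0.349% and 0.349%. Only in Hira-null day 0 was this near the share of all genes, at 2.03%. Zinc finger genes named Zfp had 28, 20, 25 and 21 of 367 (7.63%, 5.45%, 6.81% and 5.72%), and were above the all-gene share in each list but WT day 15. Holding the lists to equal length gave 11, 12, 8 and 21 Zfp genes, with more in Hira-null than in WT cells at both days. Neural genes had 1 of 16, Tubb3 in WT day 15. Of the HIRA complex, other H3.3 chaperones and the H3.3 genes, 3 of 10 had a gene-end peak in at least 1 list. H3f3b, which encodes H3.3, had it in WT day 0, WT day 15 and Hira-null day 15 (percentiles 91.3, 94.5 and 96.8), H3f3a in Hira-null day 15 (95.3), and Hira itself in WT day 15 (66.9).

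**Figure D4:**
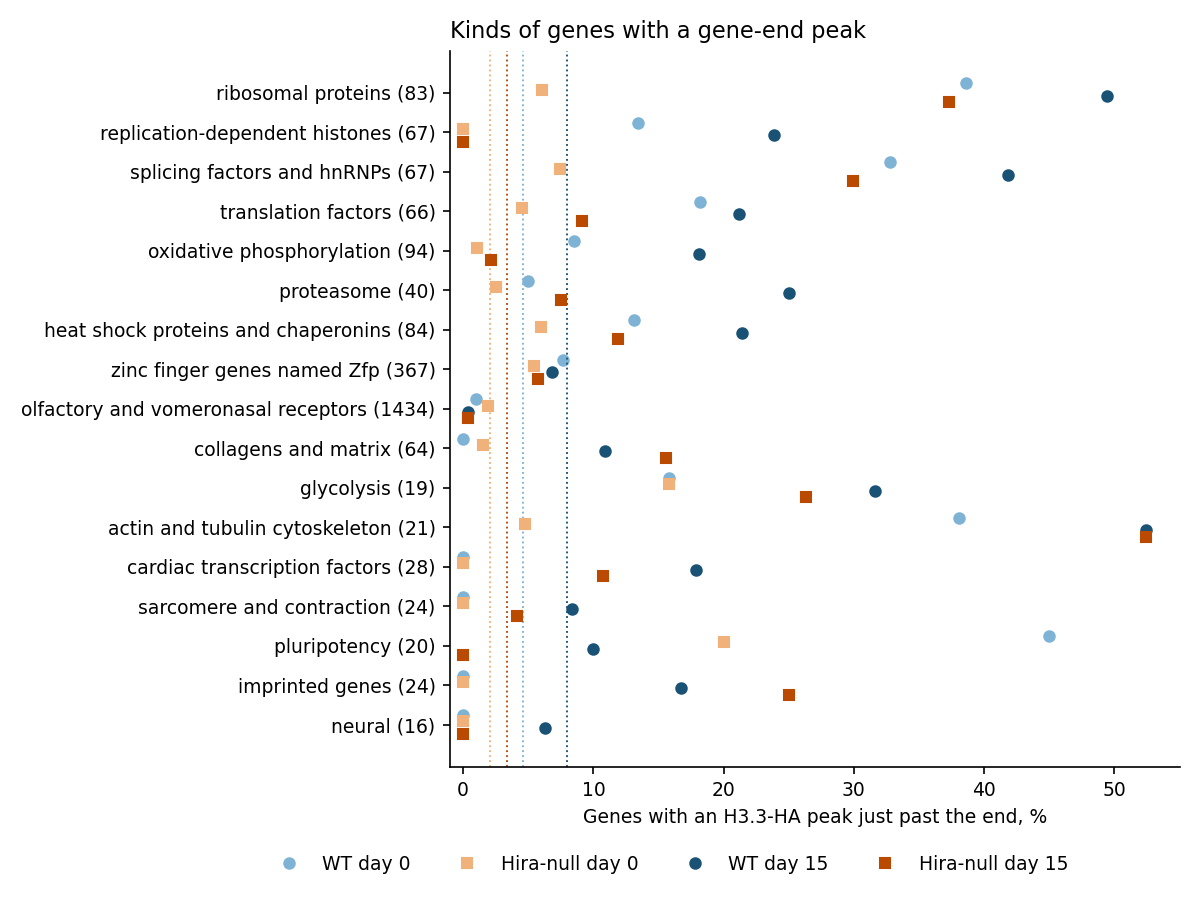
Genes with a peak just past the end, in percent of the genes found in each of 17 fixed lists with at least 16 genes (number in brackets), for the 4 conditions, with a dotted line at the share of all protein-coding genes in each. Ribosomal protein genes stand at 38.6%, 6.02%, 49.4% and 37.3%, and replication-dependent histone genes at 0% in both Hira-null lists.

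Genes with a gene-end peak had a promoter or body peak more often than genes without one. No peak lay in the promoter or in the gene body of 45.5% (42.4 to 48.6) of them in WT day 0 and 31.4% (29.3 to 33.7) in WT day 15. In Hira-null cells this share was 73.6% (69.3 to 77.6) at day 0 and 60.9% (57.3 to 64.4) at day 15. Of genes without a gene-end peak, 74.4% in WT day 0, 86.8% in Hira-null day 0, 71.6% in WT day 15 and 91.1% of those in the Hira-null day 15 list had neither. A promoter peak was present at 207 of the 1035 WT day 0 genes (17.6% to 22.6%) and 32.7% (30.6 to 35.0) of WT day 15 genes with a gene-end peak, against 7.58% and 10.9% of genes without one. In Hira-null cells promoter peaks were present at 4.63% (2.89 to 6.98) and 2.79% (1.73 to 4.23), against 1.38% of genes without a gene-end peak at either day. Body peaks were present at 46.1%, 23.3%, 58.6% and 37.3% of genes with a gene-end peak in WT day 0, Hira-null day 0, WT day 15 and Hira-null day 15, and at 21.1%, 12.1%, 22.7% and 7.77% of those without.

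The ends of these genes differed somewhat from those of all genes. The poly(A) signal AATAAA or its common variant ATTAAA, searched on the gene's strand, was found in the last 50 bases of 75.6% of WT day 0, 67.0% of Hira-null day 0, 74.7% of WT day 15 and 76.1% of Hira-null day 15 genes with a gene-end peak, against 66.6% of all genes. A convergent neighbour, with its own end within 10 kb, was found at 23.8% (21.2 to 26.5), 14.8% (11.6 to 18.4), 29.8% (27.7 to 32.0) and 27.6% (24.4 to 30.9) in the same order, against 4251 of all 22367 genes (18.5% to 19.5%). Hira-null day 0 thus lay below the level of all genes and the other 3 lists above it. The membership rule itself bears on this comparison. Midpoints within 3 kb upstream of a TSS were left out, so an end facing a near same-strand start lost part of its window. All genes were counted without regard to this, and its part in the difference was not tested. The midpoint lay inside another protein-coding gene for 24.1%, 13.7%, 30.6% and 22.0% of gene-end peaks, so their assignment to 1 gene is open to the other.

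In GC content gene-end peaks lay close to DNA past gene ends in general. The median GC content of 500 bases around the midpoint was 45.4% in WT day 0, 45.8% in Hira-null day 0, 43.4% in WT day 15 and 43.6% for Hira-null day 15, against 44.4% for genome points past gene ends. The median number of CpG per 100 bases was 0.800 in WT day 0, WT day 15 and Hira-null day 15, as at the genome points, and 1.20 in Hira-null day 0.

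After the sequences past Gm13145 and Zfp640 had been seen, gene-end peaks were searched for zinc finger coding sequence. The coding pattern of the C2H2 zinc finger linker was searched on both strands of the 500 bases around each midpoint. It was found in 11 of 1096 WT day 0 gene-end peaks (1.00%, 0.502 to 1.79), 5 of 468 in Hira-null day 0 (1.07%, 0.348 to 2.48), 6 of 1984 in WT day 15 (0.302%, 0.111 to 0.657) and 11 of 858 in Hira-null day 15 (1.28%, 0.642 to 2.28). Genome points past gene ends held it in 0.165% (0.151 to 0.181). Other Hira-null day 15 peaks held it more often, in 2.35%, and other peaks of WT day 0, Hira-null day 0 and WT day 15 in 0.435%, 0.406% and 0.221%. In WT day 0, 9 of the 11 lay past genes with Gm names, and their median score percentile was 99.3. The peaks past Gm13145 and Zfp640 that prompted the search are counted among the 11, and both loci are also counted in Hira-null day 15, so the share is a description. A match does not show that the sequence is translated.

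Gene-end peaks were unevenly spread over the chromosomes in WT cells. On chromosomes 8 and 11, 20.4% of 2735 genes had one in WT day 15, against 6.26% of genes on the other chromosomes, and in WT day 0 the values were 8.08% and 4.15%. Hira-null cells had 1.65% and 2.08% at day 0 and 3.11% and 3.41% at day 15, with no excess on those chromosomes. Peaks of all classes together showed the same, since these chromosomes held 4539 of the 22730 WT day 0 peaks and 33.4% of all WT day 15 peaks but 9.26% and 9.57% of the Hira-null peaks, with 12.2% of the genes. Gene-end peaks made up 7.49% of WT day 15 peaks when both were left out. On chromosome X, 2, 1, 1 and 5 of 932 genes had a gene-end peak in WT day 0, Hira-null day 0, WT day 15 and Hira-null day 15. Chromosome X held few peaks of any kind, with 157, 615, 24 and 99 in that order. The part of the chromosome differences in the comparison of genotypes was not tested beyond leaving out chromosomes 8 and 11.

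**Figure D5:**
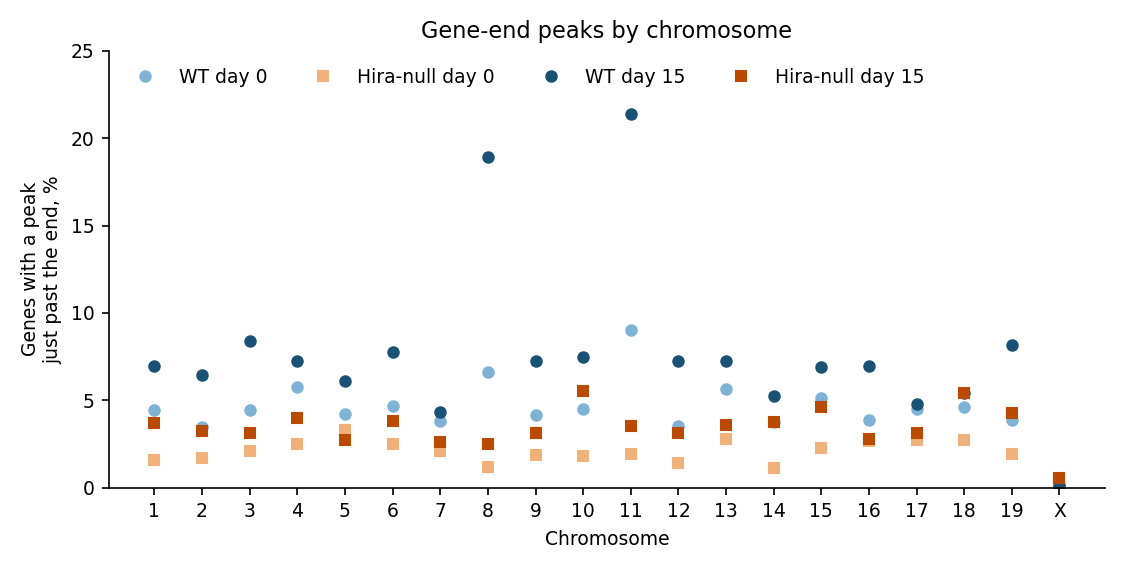
Share of protein-coding genes with a peak just past the end, in percent, for chromosomes 1 to 19 and X in the 4 conditions. WT day 15 stands at 18.9% on chromosome 8 and 21.4% on chromosome 11 and between 4.34% and 8.42% on the other numbered chromosomes, while the Hira-null lists stay at or below 5.55%.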

How the data were processed

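Native H3.3-HA ChIP-seq of chromatin digested with micrococcal nuclease was used, with 1 peak list for each of 4 conditions. The authors aligned paired-end reads to mm9 with Bowtie, removed duplicates with Samtools and called peaks with MACS 1.4.2 at default settings, per the labels and the methods. The deposited score is the peak caller's scaled negative log10 of the p-value, with a lowest value of 50.0 in each list. Peaks were called once per condition. The inputs were not analysed here and depth is unknown.

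Genes came from GENCODE M1 (NCBIM37). Peaks were placed by midpoint and assigned to the nearest gene end, while promoter exclusion used the start of every protein-coding transcript. The work used pandas 2.3.3 with numpy 2.4.6 under Python 3.11.15, intervals from scipy 1.17.1 and plots from matplotlib 3.10.9. Overlaps were checked with bedtools 2.31.1 over 12 pairs of lists, with 0 peaks counted differently, and in tests on simulated data planted overlaps of 10.00%, 30.0% and 70.0% were recovered. Shares carry exact Clopper-Pearson intervals of 95%. The share allowed by a count of 0 genes is an approximate limit, 3 divided by the number of genes, and not such an interval. With 1 ChIP library a condition, no p-value was computed. Repeat content was not used here.

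The members and the 19 gene lists were chosen with earlier results of these data known. Named were, per list, the 5 highest-scoring gene-end peaks, and per day the 5 highest-scoring WT peaks with and without a Hira-null peak and Hira-null peaks without a WT peak. The rule also named the 10 best genes of all 4 lists, of which 1 is not reported here, and up to 4 members of each gene list. The zinc finger pattern was added after seeing the data. Alternatives were windows of 1 and 5 kb, other overlap, promoter and score limits, lists of 7332 peaks, leaving out chromosomes 8 and 11, and, added after seeing the data, the ends of every transcript and alternatives for the gene lists.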

Additional observations from a re-analysis of the deposited data

Results flagged for a closer look

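The difference between gene-end peaks and other peaks in how often a WT peak was overlapped by a Hira-null peak had opposite signs at the 2 days. It was -7.41 percentage points at day 0 and 15.3 points at day 15. The day 0 difference was -2.95 points with lists of equal length and -2.67 points with a score of at least 100. It was not tested, since each condition had 1 library.

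The share of genes with a gene-end peak was higher on chromosomes 8 and 11 than on the other chromosomes in WT cells, by 3.93 percentage points at day 0 and 14.1 points at day 15. In Hira-null cells the difference was -0.438 points at day 0 and -0.300 points at day 15. The difference between the genotypes was not tested.

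Gene-end peaks were wider than other peaks by a median of 203 bp in WT day 0, while the difference was -19.0 bp in Hira-null day 0. Peaks in the last 3 kb of genes were near gene-end peaks in width, with medians of 1206 bp in WT day 0 and 1476 bp in Hira-null day 0. These differences were not tested.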

How the results depend on the processing

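No paired analysis was possible because each condition had 1 ChIP library and no test was made. Depth was unknown, so differences in list length cannot be told apart from differences in depth. Of the values recomputed for the main results, 48 moved beyond their interval or by over 1.5 times and 65 did not. Values follow in the order WT day 0, Hira-null day 0, WT day 15, Hira-null day 15 unless named.

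With a window of 1 kb, gene-end peaks numbered 431, 140, 781 and 294 at 431, 140, 781 and 293 genes, with 3 genes in all 4 lists. The share without a peak of the other genotype was 82.1% in WT day 0 and 39.8% for Hira-null day 15. With a window of 5 kb there were 816 in Hira-null day 0, and the median distance was 2011, 2610, 1899 and 2085 bp. With a score of at least 100, peaks numbered 454, 281, 963 and 415 at 444, 277, 912 and 386 genes, 13 in all 4 lists, and 76.4% of WT day 0 and 66.5% of Hira-null day 0 peaks had no partner.

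With lists of equal length, WT day 0, Hira-null day 0 and WT day 15 had 432, 185 and 699 gene-end peaks at 423, 185 and 670 genes, with 9 genes in all 4 lists. The median distance was 1374 bp in Hira-null day 0 and 1205 bp in WT day 15. The share without a partner was 62.5% in WT day 15 and 63.5% for Hira-null day 15.

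Outside other genes, the WT day 15 distance was 1173 bp, and 76.6% of WT day 0 and 75.7% of WT day 15 peaks had no partner. Without chromosomes 8 and 11 this was 72.5% in WT day 15 and 49.0% for Hira-null day 15. Asking for 50% of the peak to be covered gave 75.9% in Hira-null day 0, 85.1% in WT day 15 and 54.3% for Hira-null day 15. Widening the other list by 1 kb gave 73.0% in WT day 15 and 36.5% for Hira-null day 15. For the gene lists, 79 recomputed counts moved and 225 did not. The day 15 counts of ribosomal protein, splicing, glycolysis, Zfp, actin and tubulin, and cardiac factor genes were higher in Hira-null than in WT cells when the lists were held to equal length, and the cause was not tested.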
